A study of Mus musculus with 6 samples.

Results

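The immediate early genes *Fos*, *Fosb*, *Junb*, *Egr1*, *Egr2*, *Egr3*, *Egr4*, *Npas4*, *Arc* and *Btg2* were followed in the somatosensory cortex of *Mef2c* conditional knockout (*Mef2c* cKO) and control mice. They were chosen by gene symbol, and all 10 of them were found among the 21667 named genes of each table. RNA came from 3 control mice (*Mef2c* fl/fl, Cre-negative littermates) and 3 *Mef2c* cKO mice (*Mef2c* fl/fl with Emx1-Cre). All 6 were adult males of a mixed SVeV-129 and C57BL/6J background and all carried the floxed *Mef2c* alleles. Cre was inserted in the endogenous *Emx1* gene, whose expression starts in the embryo and covers most forebrain excitatory neurons and some forebrain glia, so the deletion does not cover all cells of the tissue. Replicate 1 of each genotype was 14 weeks old, and replicates 2 and 3 were 12 weeks old. Each library was 1 mouse, and nothing in the sources used here says what the mice experienced shortly before the tissue was taken.

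Immediate early genes are transcribed within minutes of synaptic activity and calcium entry, without the need for new protein. CREB bound at cyclic AMP response elements (CRE) and SRF bound at CArG boxes drive much of this response, and MEF2 factors are also activated by calcium in neurons. Most immediate early genes encode transcription factors that switch on a later set of genes, while a few, such as *Arc*, encode proteins that act at the synapse directly. Their transcripts are short-lived, so their levels in dissected tissue depend on recent activity.

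The RefSeq promoters of 7 of the 10 genes were searched for such elements, in windows from 250 bases before to 50 bases after each of 11 transcription starts, 5 of which belonged to *Egr2*. The CRE core TGACG, read on either strand, was found in 9 of the 11 windows and in at least 1 window of each of the 7 genes, while 20.8% of 32851 mouse promoter windows of the same length held it. The full CRE, TGACGTCA, which contains overlapping cores on both strands, was found for *Btg2* only, against 1.79% of all windows. A CArG box was found in 4 of the *Egr2* windows and in no window of the other 6 genes, against 1.63% of all windows. Some of the *Egr2* windows overlap and hold the same CArG box and CRE cores, so counts of windows include the same element more than once. No MEF2 site, present in 3.19% of all windows, and no AP-1 site (TGAGTCA on either strand, 5.2% of all windows) was found in any of the 11. The EGR site GCGNGGGCG was found in the windows of *Btg2* and *Fosb*, against 5.55% of all windows. These matches describe letters in short windows, and regulatory elements farther away were not searched.

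The stretch of 150 bases just upstream of the start is shown for *Junb*, the only one of the 10 genes that passed the test of genotype, for *Fos* and *Fosb*, its partners in AP-1, and for *Egr2*, which held both kinds of element. All are from build GRCm38.p6 and are written 5′ to 3′ on the strand of the gene, with CRE cores and CArG boxes in capitals. The *Junb* stretch is chr8:84978749-84978898 (minus strand), that of *Fos* is chr12:85473740-85473889 (plus strand), that of *Fosb* is chr7:19310046-19310195 (minus strand), and that of *Egr2* is chr10:67537719-67537868 (plus strand).
Junb: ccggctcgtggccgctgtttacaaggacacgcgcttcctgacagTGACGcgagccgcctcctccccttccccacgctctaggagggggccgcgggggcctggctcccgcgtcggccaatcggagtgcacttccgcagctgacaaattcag
Fos: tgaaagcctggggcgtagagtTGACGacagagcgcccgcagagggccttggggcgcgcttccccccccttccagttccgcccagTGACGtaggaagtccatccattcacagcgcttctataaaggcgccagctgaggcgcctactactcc
Fosb: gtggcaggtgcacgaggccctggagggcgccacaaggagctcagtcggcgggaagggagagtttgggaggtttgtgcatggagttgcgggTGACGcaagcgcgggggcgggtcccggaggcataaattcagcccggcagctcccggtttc
Egr2: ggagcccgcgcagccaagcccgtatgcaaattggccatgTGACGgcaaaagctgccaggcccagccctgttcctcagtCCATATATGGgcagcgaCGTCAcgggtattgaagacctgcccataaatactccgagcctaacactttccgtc

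The core began at position -106 from the start in *Junb* and at -60 in *Fosb*. *Fos* held a core at -129 and another at -66. In *Egr2* the CArG box at -72 lay between cores at -111 and -55.

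The unit used throughout is CPM, the whole reads of a gene scaled to 1000000 reads of the mouse. Reads were recovered from the deposited RPKM values, and the totals ranged from 32743798 to 54128334 reads in 5 mice and came to 19326365 in cKO replicate 2. Genotypes were compared with limma on log2(CPM + 0.1) for the 14578 genes whose CPM exceeded 0.5 in all mice of one genotype or of both. A gene passed at a Benjamini-Hochberg adjusted p under 0.05 together with an absolute log2 fold change above 0.3. In all, 1990 genes (13.7%) passed, of which 857 (5.88%) were higher and 1133 (7.77%) lower in the *Mef2c* cKO. *Mef2c* itself, the targeted gene, had 772 to 800 CPM in controls and 1231, 1276 and 1468 CPM in the cKO mice, a log2 fold change of 0.74 ± 0.07 (SE, limma adjusted p = 0.000175). Reads were counted over the whole gene, so this rise neither shows nor excludes the loss of the floxed part. *Emx1*, the gene that carries Cre, had 16.5, 20.3 and 18.8 CPM in controls and 5.71, 4.97 and 5.10 CPM in the cKO mice, which separated the libraries in the way their labels do.

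Of the 10 immediate early genes, 1 passed the test. *Junb* was higher in the cKO, none was lower, and 9 did not pass, beside the 13.7% of all tested genes that passed in either direction. Of the 10 log2 fold changes, 4 were positive and 6 were negative, with a median of -0.10 against 0.01 over all tested genes. *Junb* was also the only 1 of the 10 whose mice did not overlap between genotypes, while the genotypes did not overlap for 33.9% of the 14460 tested genes that had counts in all 6 mice. The standard errors of the 10 log2 fold changes ran from 0.15 to 0.56, with a median of 0.24 against 0.09 over all tested genes.

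**Figure D1:**
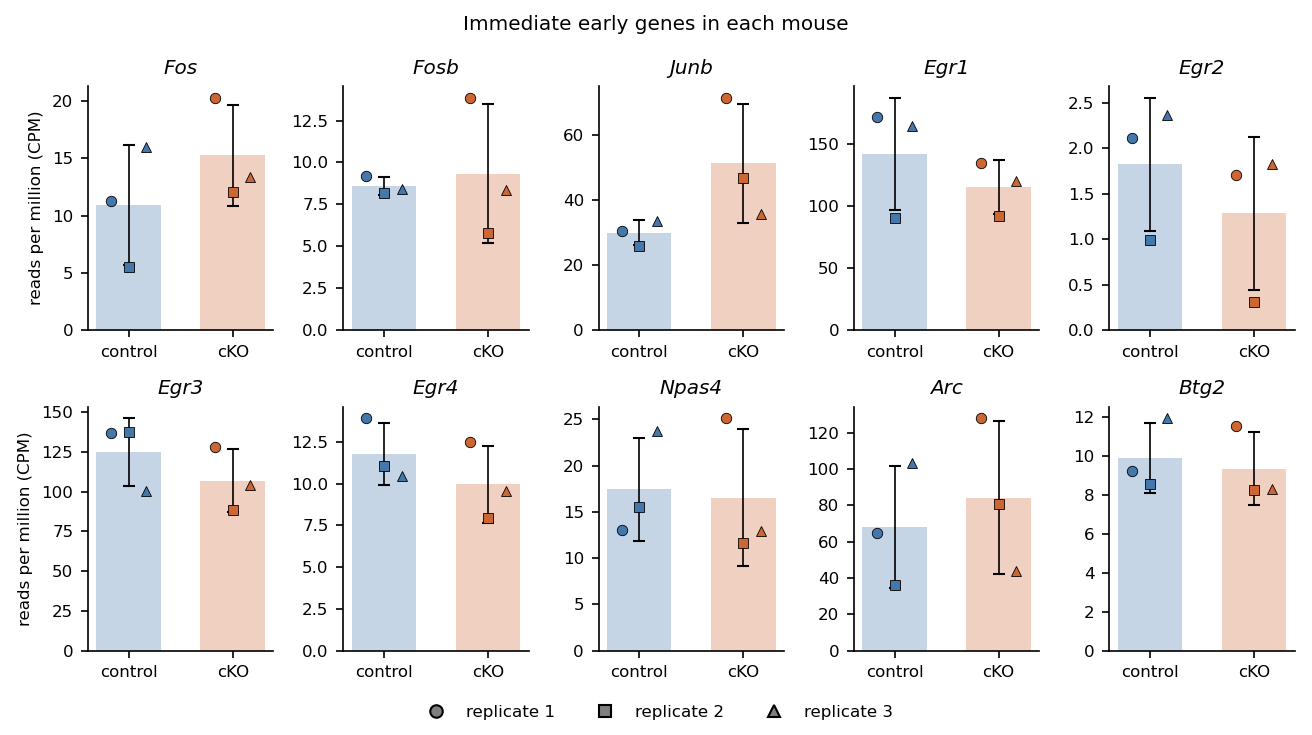
CPM (y axis) of each immediate early gene in the 3 control and 3 *Mef2c* cKO mice. Bars are means, error bars are SD (n = 3 mice) and each symbol is 1 mouse. Only the *Junb* points, from 25.9 to 33.5 in controls and from 35.9 to 71.6 in the cKO, do not overlap.

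The AP-1 genes were examined first. AP-1 is a dimer of a FOS and a JUN family protein that binds TGAGTCA and related sites. *Junb*, a JUN family member, had 30.6, 25.9 and 33.5 CPM in control replicates 1, 2 and 3 and 71.6, 46.7 and 35.9 CPM in cKO replicates 1, 2 and 3. Every cKO mouse lay above every control mouse, but cKO replicate 3 lay just above control replicate 3. The means were 30.0 ± 3.88 (SD, n = 3) and 51.4 ± 18.3 CPM (SD, n = 3), a 1.65-fold rise and a log2 fold change of 0.72 ± 0.21 (SE, limma adjusted p = 0.0482). The exact permutation test of the mean CPM gave p = 0.1, the smallest value that 3 mice against 3 allow.

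The *Junb* call lay at the edge of the threshold. Its log2 fold change stayed positive in all 17 alternative settings, between 0.46 and 0.95, but it passed in only 5 of them. It no longer passed without control replicate 1, 2 or 3 (adjusted p = 0.104, 0.148 and 0.0705 from limma), without cKO replicate 1 or 2 (0.0752 and 0.0879), or in the 12-week mice alone (0.134). The log2 fold change was 0.46 without cKO replicate 1. *Junb* passed without cKO replicate 3, the lowest of the cKO mice, at an adjusted p of 0.00825 and a log2 fold change of 0.95.

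**Figure D2:**
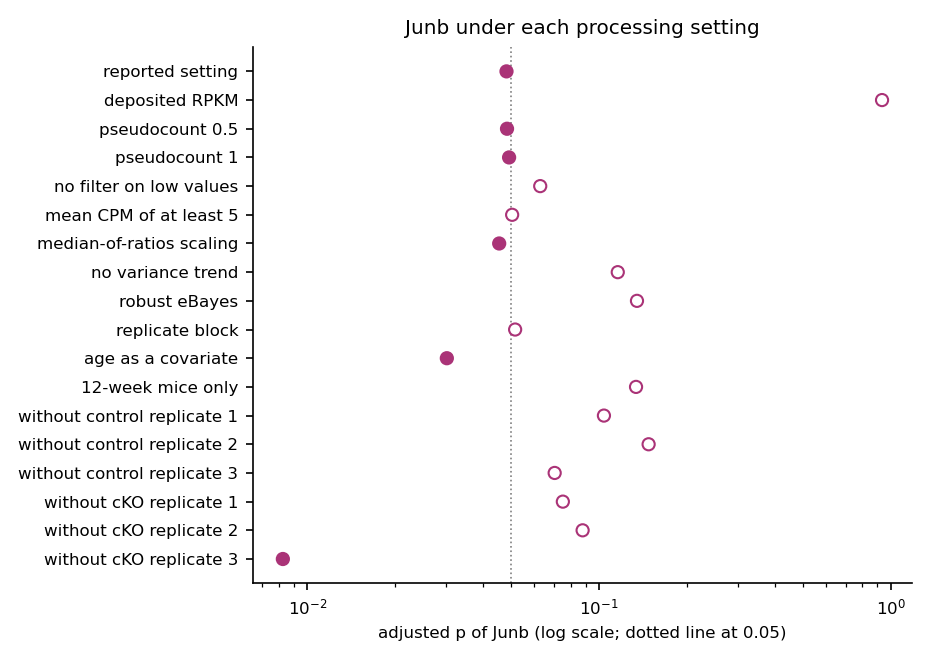
Benjamini-Hochberg adjusted p of *Junb* from limma (x axis, log scale) in the reported setting and in each of 17 alternatives (y axis). Filled points are below 0.05, and 6 of the 18 points are filled.

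*Fos*, the partner most often used as a marker of active neurons, had 11.3, 5.53 and 16.0 CPM in controls and 20.3, 12.1 and 13.4 CPM in the cKO. Control replicate 2 was the lowest mouse and cKO replicate 1 the highest, but control replicate 3 exceeded both of the other cKO mice. The log2 fold change of 0.57 ± 0.34 (SE) did not pass (limma adjusted p = 0.319), and its 95% interval ran from -0.20 to 1.34, which includes both 0 and the value of *Junb*. It was 0.15 without control replicate 2 and 0.90 without control replicate 3. *Fosb*, which encodes FOSB and the long-lived splice form delta-FOSB, had 9.20, 8.16 and 8.44 CPM in controls and 13.9, 5.80 and 8.33 CPM in the cKO. The cKO mice held both the highest and the lowest value of the 6, around nearly equal means, and the log2 fold change was 0.03 ± 0.26 (SE, limma adjusted p = 0.960). Gene-level reads do not separate the splice forms.

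The EGR family encodes zinc finger transcription factors that bind GC-rich sites of the kind GCGNGGGCG. All 4 members had a negative log2 fold change, and none passed. *Egr1*, abundant in cortex under ordinary sensory input, had 172, 89.99 and 164 CPM in controls and 134, 91.4 and 120 CPM in the cKO. Replicate 2 of each genotype was low, with nearly equal values, while the other controls exceeded the other cKO mice. The log2 fold change was -0.26 ± 0.23 (SE, limma adjusted p = 0.510). Without control replicate 2 it was -0.56 and passed (limma adjusted p = 0.0393), so for *Egr1* 1 control mouse decided the call, while without control replicate 1 it was -0.096.

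*Egr3*, a calcium-responsive member expressed strongly in the adult cortex, had 137, 138 and 100 CPM in controls and 128, 88.6 and 104 CPM in the cKO. The genotypes overlapped, since control replicate 3 was below 2 of the cKO mice. Its log2 fold change was -0.22 ± 0.15 (SE, limma adjusted p = 0.377), the smallest standard error of the 10 genes, with a 95% interval from -0.56 to 0.12. It ran from -0.097 without cKO replicate 2 to -0.38 without control replicate 3. *Egr4* had 13.9, 11.03 and 10.4 CPM in controls and 12.5, 7.92 and 9.53 CPM in the cKO. Here too the genotypes overlapped, only through cKO replicate 1, and the log2 fold change was -0.25 ± 0.17 (SE, limma adjusted p = 0.383). It ran from -0.10 without cKO replicate 2 to -0.43 without cKO replicate 1.

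*Egr2*, known as Krox20 and best known for its part in hindbrain patterning and Schwann cell myelination, was the least abundant member. It had 72, 49 and 122 reads in controls and 56, 6 and 99 reads in the cKO, or 2.12, 0.99 and 2.37 CPM against 1.71, 0.31 and 1.83 CPM. The 6 reads of cKO replicate 2, in the shallowest library, gave a 95% counting interval from 0.11 to 0.68 CPM, which lay below the value of each of the other mice. The log2 fold change of -0.69 ± 0.56 (SE, limma adjusted p = 0.477) had the widest interval of the 10 genes, from -1.96 to 0.59. Without cKO replicate 2 it became 0.043, so its direction rested on that mouse.

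*Npas4*, a bHLH-PAS factor induced selectively by calcium entry and known for organizing inhibitory synapses onto excitatory neurons, had 13.0, 15.6 and 23.7 CPM in controls and 25.1, 11.6 and 12.9 CPM in the cKO. The highest value belonged to cKO replicate 1 and the lowest 2 values to the other cKO mice, and the log2 fold change was -0.12 ± 0.29 (SE, limma adjusted p = 0.843). The sign was positive without control replicate 3 (0.13), without cKO replicate 2 (0.093) and without cKO replicate 3 (0.020). In the 12-week mice alone the log2 fold change was -0.65 and did not pass (limma adjusted p = 0.0944).

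*Arc* encodes a postsynaptic protein that promotes the removal of AMPA receptors from the synapse. It had 65.1, 36.4 and 103 CPM in controls and 128, 80.9 and 43.9 CPM in the cKO. The highest mouse exceeded the lowest 2.83-fold in controls and 2.92-fold in the cKO, control replicate 2 and cKO replicate 3 being the lowest mice, and the genotypes were interleaved. The log2 fold change of 0.30 ± 0.41 (SE, limma adjusted p = 0.692) had a 95% interval from -0.64 to 1.24, and it turned negative without control replicate 2 (-0.091), without cKO replicate 1 (-0.068) and in the 12-week mice alone (-0.039).

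*Btg2*, an antiproliferative protein that binds the CCR4-NOT deadenylase, had 9.23, 8.54 and 11.9 CPM in controls and 11.5, 8.23 and 8.30 CPM in the cKO. Both genotypes covered nearly the same range, with a log2 fold change of -0.09 ± 0.17 (SE, limma adjusted p = 0.786) and a 95% interval from -0.46 to 0.29.

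To set the genes side by side, CPM was divided by the exon length of each gene in kb, from gencode on build NCBIM37 (mm9). The authors had counted reads on a different annotation of that build. The length used for *Egr3*, 1469 bases, was the shortest of the 10, and whether it held all the bases the authors counted was not tested. Before division by length, *Egr1* was above *Egr3* in controls, with means of 142 and 125 CPM. By these lengths, *Egr3* had the highest level in controls, 85.0 ± 14.5 CPM per kb (SD, n = 3). It was followed by *Egr1* (45.8 ± 14.6), *Arc* (22.3 ± 10.9) and *Junb* (16.6 ± 2.15). Then came *Egr4* (5.52 ± 0.87), *Npas4* (5.32 ± 1.71), *Fos* (4.65 ± 2.22), *Btg2* (3.61 ± 0.65), *Fosb* (2.29 ± 0.14) and *Egr2* (0.54 ± 0.22). Of the neighbours in this order, the control mice overlapped between *Egr1* and *Arc*, *Arc* and *Junb*, *Egr4* and *Npas4*, *Npas4* and *Fos*, and *Fos* and *Btg2*, and they did not overlap between the other neighbours. In the cKO, *Junb* (28.4 ± 10.1 CPM per kb) and *Arc* (27.6 ± 13.8) exchanged places within their spread. By the same lengths, *Egr3* (72.8 ± 13.6) was still the highest and *Egr2* (0.38 ± 0.25) the lowest.

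The 10 genes shared a large spread between mice of one genotype. They were chosen by gene symbol, but with earlier results of these data known. The within-genotype SD of log2(CPM + 0.1), pooled over both genotypes, was 0.26 for *Btg2* and *Egr3*, 0.28 for *Egr4*, 0.38 for *Junb*, 0.42 for *Egr1*, 0.45 for *Fosb*, 0.53 for *Npas4*, 0.61 for *Fos*, 0.76 for *Arc* and 1.00 for *Egr2*. Their median was 0.43, against 0.11 over those 14460 genes, and 7 of the 10 lay above the 90th percentile, 0.28. *Btg2*, with the smallest SD, was still at the 87.7th percentile. For *Egr2* the counting error of few reads contributed to the SD, which was at the 99.8th percentile. A wide spread was not limited to the 10 genes: of 36 other rapid genes with counts in all 6 mice, 12 lay above the 90th percentile, among them *Nr4a2* (SD 0.67), *Ier2* (0.50) and *Nr4a1* (0.48). The median of the 36 was 0.21, and *Klf6* had the lowest value, 0.049.

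**Figure D3:**
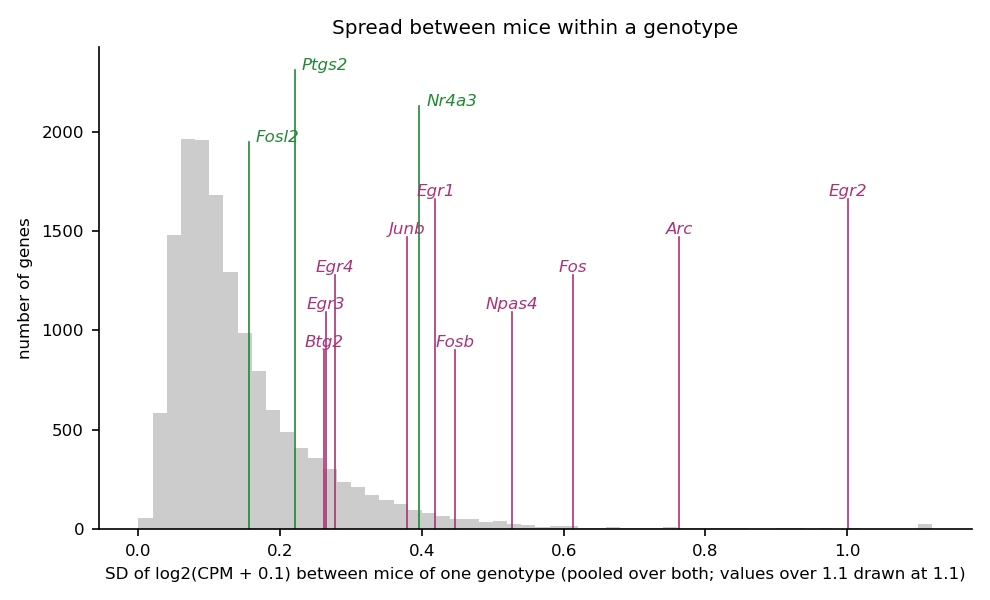
Number of genes (y axis) by the SD of log2(CPM + 0.1) between mice of one genotype (x axis), pooled over both genotypes, for the 14460 tested genes with a count in all 6 mice (grey). Purple lines mark the 10 immediate early genes, from 0.26 to 1.00, and green lines mark *Fosl2*, *Ptgs2* and *Nr4a3*, from 0.16 to 0.40, which were chosen because they passed the test of genotype.

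The lowest value of every gene came from 1 of the same 2 mice, but low values were not limited to them. Replicate 3 of the cKO was among the 2 lowest mice for 4 genes, and control replicate 1 for 2 genes. Control replicate 2 was the lowest of the 6 mice for 4 genes (*Fos*, *Junb*, *Egr1* and *Arc*) and cKO replicate 2 for the other 6 (*Fosb*, *Egr2*, *Egr3*, *Egr4*, *Npas4* and *Btg2*). The highest values were more evenly spread, with cKO replicate 1 highest for 5 genes, control replicates 1 and 3 for 2 genes each and control replicate 2 for *Egr3* alone. Averaged over the 10 genes, the log2 level relative to the mean of each gene was 0.49 in cKO replicate 1, 0.26 in control replicate 3 and 0.09 in control replicate 1. It was -0.11 in cKO replicate 3, -0.35 in control replicate 2 and -0.38 in cKO replicate 2. The 14-week mice of both genotypes were thus above the average, but control replicate 3, at 12 weeks, was above the 14-week control.

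By a fixed rule, the 5 other genes most like the average of the 10 over the 6 mice were sought among 413 genes with a mean of at least 5 CPM and an SD of log2 CPM of at least 0.5. They were *Olfml2b* (Pearson r = 0.77 over 6 mice), *Mir132* (0.73), *Aldh1a2* (0.66), *Sik1* (0.65) and *Pyroxd2* (0.61). Of these *Sik1*, a CREB-regulated kinase, is itself a rapid gene, and *Mir132* is the locus of a microRNA known to be induced by CREB. *Sik1* had 9.76, 7.59 and 10.7 CPM in controls and 21.2, 10.97 and 14.9 CPM in the cKO, and did not pass (log2 fold change 0.70, limma adjusted p = 0.0612). The 6 points behind each r share libraries and tissue pieces with the 10 genes, and no value was close to 1. These are the highest of 413 correlations over 6 mice, and no chance level was computed for them. Whether the 5 genes share regulation with the 10 was not tested.

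Rapid genes outside the 10 were then described by the same fit. Of 20 other rapid transcription factors, 17 were tested, 2 were higher, 1 was lower and 14 did not pass, beside 13.7% of all tested genes that passed, with a median log2 fold change of 0.11. The remaining 3 genes of the list, *Fosl1*, *Atf3* and *Maff*, were too low to be tested. *Nr4a3*, an orphan nuclear receptor, had 9.97, 5.12 and 7.72 CPM in controls and 40.8, 27.2 and 32.1 CPM in the cKO, a 4.44-fold rise (log2 fold change 2.15 ± 0.23, SE). *Fosl2*, the FOS family member FRA2, had 33.8, 33.1 and 33.9 CPM in controls and 84.8, 64.0 and 66.5 CPM in the cKO, a 2.12-fold rise (log2 fold change 1.08 ± 0.10, SE). *Klf6*, a Krüppel-like factor, had 62.4 to 64.2 CPM in controls and 36.1 to 39.5 CPM in the cKO, a log2 fold change of -0.75 ± 0.06 (SE). The genotypes were far apart in all 3 genes relative to the spread of the mice. *Nr4a1*, from the same receptor family as *Nr4a3*, had a log2 fold change of -0.06 and *Jun*, which can replace *Junb* in AP-1, one of 0.30 (limma adjusted p = 0.910 and 0.152).

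**Figure D4:**
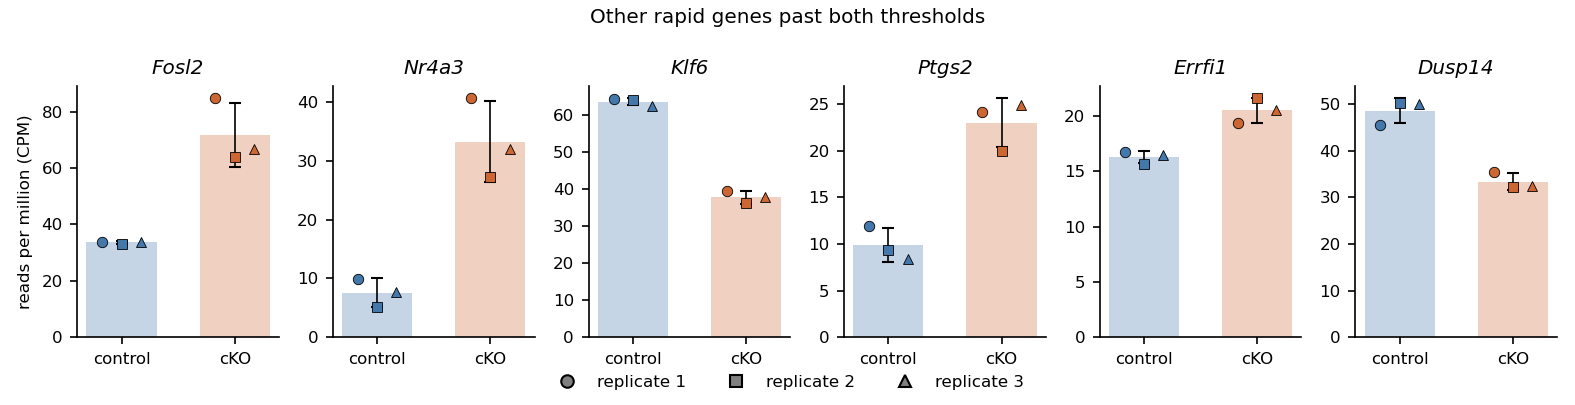
CPM (y axis) of the 6 other rapid genes that passed both thresholds, in the 3 control and 3 *Mef2c* cKO mice, with means (bars), SD (error bars, n = 3 mice) and single mice (symbols). In each panel the genotypes do not overlap.

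Of 20 rapid genes with effector roles, all were tested, 2 were higher, 1 was lower and 17 did not pass, again beside 13.7% of all tested genes (median log2 fold change 0.15). *Ptgs2*, the inducible cyclooxygenase, had 12.0, 9.37 and 8.38 CPM in controls and 24.2, 19.97 and 24.9 CPM in the cKO, a 2.32-fold rise (log2 fold change 1.22 ± 0.14, SE). *Errfi1*, a feedback inhibitor of EGF receptor signalling, rose by a smaller amount (log2 fold change 0.33 ± 0.08, SE). *Dusp14*, a MAP kinase phosphatase, had 45.5 to 50.2 CPM in controls and 32.1 to 35.5 CPM in the cKO (log2 fold change -0.54 ± 0.07, SE). *Nr4a3*, *Fosl2*, *Klf6*, *Ptgs2* and *Dusp14* passed with recovered reads in all 16 alternatives, each without overlap between genotypes, while *Errfi1* did not pass in 6 of them. These included the fits without control replicate 2 or 3 and without cKO replicate 2 or 3 (limma adjusted p from 0.0565 to 0.0803). Without cKO replicate 1, 5 of these effector genes passed in place of 3, the added ones being *Dusp1* and *Fbxo33*, both lower.

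Late response genes follow the first wave and include secreted and synaptic proteins. Of 13, all tested, 2 were higher, 4 were lower and 7 did not pass, beside 13.7% of all tested genes, with a median log2 fold change of -0.10. *Nptx2*, a secreted pentraxin that clusters AMPA receptors on parvalbumin interneurons, had 66.4, 91.7 and 64.8 CPM in controls and 49.1, 22.9 and 48.5 CPM in the cKO. Its log2 fold change was -0.95 ± 0.27 (SE, limma adjusted p = 0.0409), and cKO replicate 2, the mouse with the lowest values of 6 immediate early genes, again had the lowest value. *Nrn1*, a GPI-anchored neuritin that promotes neurite growth, fell from 208 to 245 CPM in controls to 168 to 173 CPM in the cKO (log2 fold change -0.43). *Baz1a* (-0.88), a chromatin remodelling subunit, and *Acvr1c* (-0.34), an activin and nodal receptor, were lower as well. *Rasgrp1* (0.59), a calcium-responsive RAS activator, and *Sorcs3* (0.34), a sorting receptor, were higher. *Bdnf*, the best known late response gene, had 23.9, 23.9 and 19.6 CPM in controls and 30.3, 15.1 and 21.1 CPM in the cKO and did not pass (log2 fold change -0.07, limma adjusted p = 0.868). Only 3 late response genes passed in place of 6 without control replicate 1 (*Nrn1*, *Baz1a* and *Rasgrp1*), and the count was also 3 with the replicate block, without the variance trend and in the 12-week mice only. *Nptx2* did not pass in 9 of 16 alternatives. These were the fits without control replicate 1, 2 or 3 (limma adjusted p from 0.0689 to 0.134) and those with no filter, no variance trend, robust eBayes, the replicate block, age as a covariate or 12-week mice only (from 0.0544 to 0.175). Its log2 fold change was -0.59 without cKO replicate 2, where it passed. *Acvr1c* passed only without cKO replicate 3 and *Sorcs3* only without control replicate 2 when mice were left out (adjusted p from limma 0.0728 to 0.101 and 0.0568 to 0.147 in the other fits).

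The regulators that act upstream of the immediate early genes were also listed. Of 26, all tested, 5 were higher, 2 were lower and 19 did not pass, beside 13.7% of all tested genes, with a median log2 fold change of 0.06. *Mef2d*, another MEF2 factor, had 136 to 140 CPM in controls and 169 to 181 CPM in the cKO (log2 fold change 0.35 ± 0.05, SE). *Mapk3* (0.41), which encodes the kinase ERK1, *Rps6ka2* (0.34) and *Rps6ka5* (0.44), which encode the kinases RSK3 and MSK1, and *Camkk1* (0.45), which activates CaMKIV, were higher. *Rps6ka3* (-0.46), which encodes RSK2, was lower. *Camk4*, the gene of the nuclear kinase CaMKIV that phosphorylates CREB, had 259, 274 and 262 CPM in controls and 191, 175 and 201 CPM in the cKO (log2 fold change -0.49 ± 0.06, SE). *Creb1* (log2 fold change 0.03, limma adjusted p = 0.879) did not pass. *Srf* had 39.1 to 43.3 CPM in controls and 46.0 to 49.4 CPM in the cKO, and although its adjusted p from limma was 0.0416, its log2 fold change of 0.24 was below the size threshold. When mice were left out, *Mapk3* did not pass without any 1 of the controls (limma adjusted p from 0.0503 to 0.0958) or without cKO replicate 1 (log2 fold change 0.28). *Rps6ka2* did not pass without control replicate 1 or 3 or without cKO replicate 1 or 3 (limma adjusted p from 0.0917 to 0.116).

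Among 12 protein partners of the immediate early proteins, all tested, only *Arnt2* passed, beside 13.7% of all tested genes (median log2 fold change 0.10). *Arnt2* encodes the bHLH-PAS protein with which NPAS4 dimerizes. It had 388, 365 and 382 CPM in controls and 235, 245 and 269 CPM in the cKO, a log2 fold change of -0.60 ± 0.06 (SE, limma adjusted p = 0.000227). *Npas4* itself showed the interleaved values given above.

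**Figure D5:**
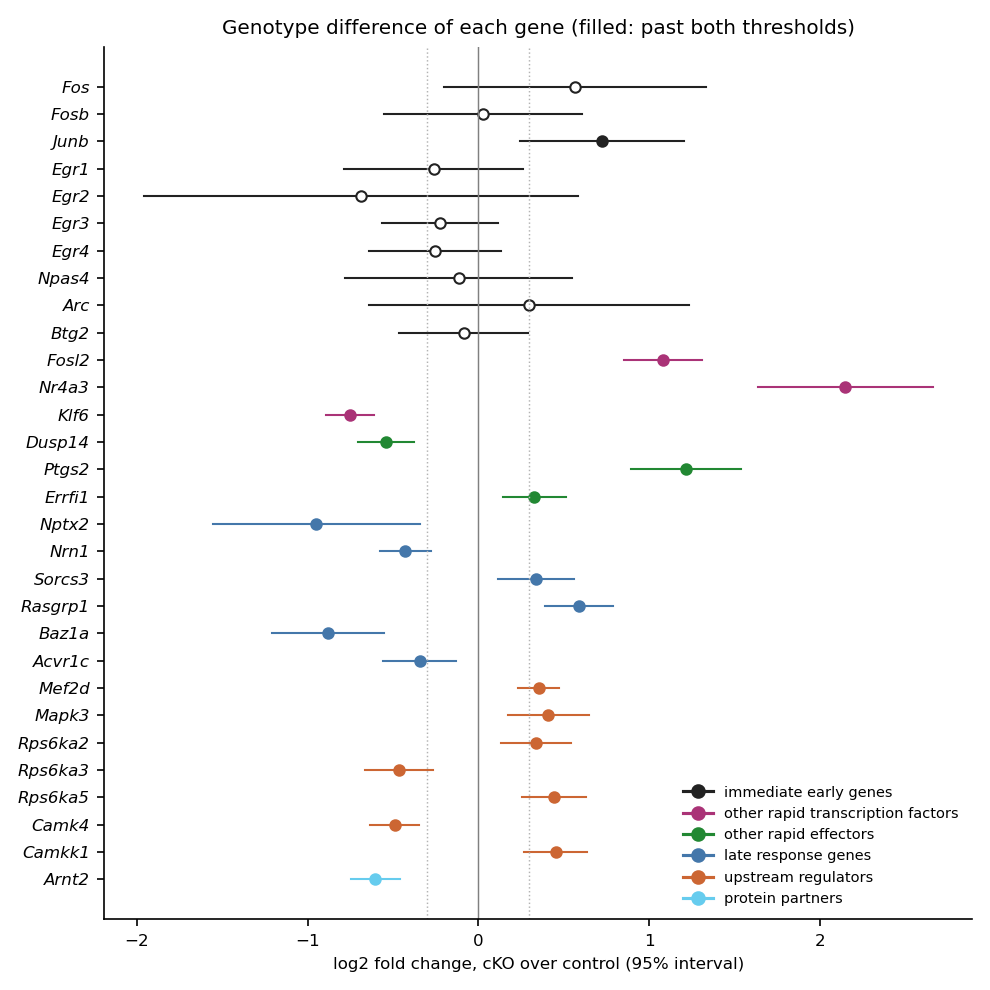
log2 fold change (x axis, cKO over control) with its 95% interval from limma for the 10 immediate early genes (black) and for the genes of 5 related lists that passed both thresholds (colours). Filled points passed both thresholds, and *Junb* is the only filled black point. The intervals of the other 9 immediate early genes all include 0.

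Cell type markers moved with genotype and with single mice, and their part in the results above was not tested. In bulk tissue, fewer cells of a type and less RNA per cell cannot be told apart. Of 10 oligodendrocyte markers, 5 were higher in the cKO and none was lower, beside 13.7% of all tested genes that passed (median log2 fold change 0.49). Their summed levels ran from 3342 to 5419 CPM in controls and from 5380 to 6899 CPM in the cKO. Control replicate 2, the lowest mouse for *Fos*, *Junb*, *Egr1* and *Arc*, also had the lowest sum of oligodendrocyte markers, 3342 CPM, while cKO replicate 2, the lowest mouse for the other 6 genes, had a sum of 6790 CPM. The 7 measured striatal markers summed to 175 to 248 CPM in controls and to 359, 165 and 310 CPM in cKO replicates 1, 2 and 3, and 1 of them, *Penk*, passed as higher. The log2 fold changes of the 7 went in both directions, from -1.09 to 1.31. By the sums, cKO replicate 1 had the most immediate early transcripts and the most striatal marker RNA of the cKO mice. The 10 genes summed to nearly equal levels in cKO replicates 2 and 3, 354 and 358 CPM, although the striatal sums of these mice differed. In controls, replicate 2 had the highest striatal sum and the lowest average of the 10 genes.

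Of 5 tested hippocampal markers, 3 were higher in the cKO (*Tdo2*, *Wfs1* and *Pou3f1*), with sums from 164 to 188 CPM in controls and from 234 to 353 CPM in the cKO. Whether this RNA came from hippocampal tissue or from cells of the cortex was not tested. Of 5 tested thalamic markers, 1 was higher and 1 lower, with sums from 80.5 to 126 CPM against 60.6 to 66.7 CPM. Among 10 markers each, pyramidal neuron markers had 4 higher and 2 lower, 1 of the latter being *Emx1*, the gene that carries Cre. Interneuron markers had 3 higher and 1 lower and astrocyte markers 2 higher and 1 lower. Of all tested genes, 13.7% passed. None of the 10 microglia, 10 endothelial cell or 3 measured blood markers passed. Astrocyte sums were lower in every cKO mouse (4262 to 4525 CPM) than in controls (4827 to 5125 CPM). So were microglia sums (227 to 242 against 246 to 274 CPM). The sums of pyramidal neuron, interneuron, endothelial cell and blood markers overlapped between genotypes. *Tbr1*, 1 of the 10 pyramidal neuron markers, was present in all mice, at 157 to 220 CPM in controls and 293 to 320 CPM in the cKO. No list had a measured gene at 0 in all mice.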

How the data were processed

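RNA of 6 mice was sequenced by the authors after polyA selection and directional library preparation, aligned to mm9 with TopHat and Bowtie and counted with HTSeq (versions not given in the sources used here). The deposited values are RPKM, which the authors computed from these counts, one table per mouse. The 92 rows named NA were left out.

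The lengths behind the RPKM were a list of 65 to 296 values per table, repeated over genes in the text order of their NCBI gene numbers, so RPKM of a gene are not comparable between mice. Whole reads were recovered with the total and the place of each gene in the list (Python 3.11.15) for 99.38% to 99.65% of values above 0, and for all values of the 10 genes. Genes with at least 2 counts per genotype were fitted with limma 3.58.1 (R 4.3.3, eBayes with a variance trend, no covariates) on log2(CPM + 0.1), which understates changes of low genes. Both steps were tested on simulated data. In these the spread between mice was, for most genes, below that of the 10 genes, and the lengths covered a narrower range than the recovered ones. Intervals on reads (exact Poisson) cover counting error only. Genotypes and replicate numbers are from the labels.

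Named genes are the 10, *Mef2c*, list genes that passed and the 5 most alike. *Emx1*, *Fosl1*, *Atf3*, *Maff*, *Nr4a1*, *Nr4a2*, *Ier2*, *Jun*, *Bdnf*, *Creb1*, *Srf*, *Dusp1*, *Fbxo33*, *Tsc22d3* and the cell markers were added after their values were seen. The genes and lists were chosen with earlier results of these data known. The promoters of *Arc*, *Egr1* and *Egr3* were not used here. The 17 alternatives were pseudocounts of 0.5 and 1, no filter or a mean CPM filter, median-of-ratios scaling, no variance trend, robust eBayes, a replicate block, age as a covariate, 12-week mice only, the deposited RPKM and leaving out each mouse.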

Additional observations from a re-analysis of the deposited data

How the results depend on the processing

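The count of immediate early genes that passed was 1 in the reported setting and 0 with the deposited RPKM, without a filter on low values, with a mean CPM of at least 5, without the variance trend, with robust eBayes, with the replicate block and in the 12-week mice only. Leaving out each mouse gave 0 to 1, the gene that passed without control replicate 2 being *Egr1* and not *Junb*. With the replicate block the adjusted p of *Junb* from limma was 0.0516, 1689 genes passed in place of 1990, and 18 genes of the 6 lists in place of 23. The same-numbered mice did not deviate together (correlations of -0.18, -0.11 and -0.09 over 14460 genes), and the correlations with other numbers reached 0.12. Each correlation rests on single mice, so it cannot decide whether same-numbered mice shared a litter or a preparation. Same-numbered mice did share an age.

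With the deposited RPKM 14 genes passed in all, 0 of them from the 6 lists, and the log2 fold change of *Mef2c* was 0.016 and did not pass. It also turned *Camkk1* (-0.74), *Mef2d* (-1.09), *Nrn1* (0.41), *Rps6ka2* (-0.88) and *Sgk1* (-0.66). These RPKM carry a different length for one gene in each mouse, and some of the list genes were not tested with them. With recovered reads, 1462 to 2013 genes and 18 to 23 list genes passed over all alternatives, and *Mef2c* stayed between 0.66 and 0.80 and passed.

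In the 12-week mice only, *Fosb* was at -0.25, *Arc* at -0.039 and *Npas4* at -0.65. Leaving out mice gave log2 fold changes from -0.30 to 0.32 for *Fosb*, -1.07 to 0.043 for *Egr2*, -0.46 to 0.13 for *Npas4*, -0.091 to 0.70 for *Arc* and -0.24 to 0.055 for *Btg2*, so that their directions turned. The directions of *Fos*, *Junb*, *Egr1*, *Egr3* and *Egr4* did not turn in any alternative that tested them, but leaving out mice moved *Fos* from 0.15 to 0.90, *Egr1* from -0.56 to -0.096, *Egr3* from -0.38 to -0.097 and *Egr4* from -0.43 to -0.10. With 3 mice per genotype and standard errors of 0.15 to 0.56, the spread between mice set the precision of 9 of the genes, and for *Egr2* the depth of cKO replicate 2 (6 reads) did so too.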

Other observations

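Genes known to respond to glucocorticoids, the hormones of the stress response, were listed as well. Of 10, all tested, 2 were higher in the *Mef2c* cKO, 1 was lower and 7 did not pass, beside 13.7% of all tested genes, with a median log2 fold change of -0.07 against 0.01 over all tested genes. *Sgk1*, a serum- and glucocorticoid-regulated kinase, had 47.4, 51.0 and 58.6 CPM in controls and 68.4, 71.2 and 79.8 CPM in the cKO (log2 fold change 0.48 ± 0.09, SE). *Fkbp5*, a chaperone of the glucocorticoid receptor, had 15.6, 17.6 and 17.2 CPM in controls and 24.7, 22.2 and 28.4 CPM in the cKO (0.57 ± 0.10, SE), and did not pass in the 12-week mice only (limma adjusted p = 0.0505). *Cdkn1a*, a cell cycle inhibitor, had 15.1, 15.5 and 13.2 CPM in controls and 11.2, 6.47 and 7.67 CPM in the cKO (-0.82 ± 0.18, SE), and did not pass without control replicate 2 (limma adjusted p = 0.054). *Tsc22d3*, another target of the receptor, had log2 fold change -0.05 and did not pass (limma adjusted p = 0.696). The mouse highest in both *Sgk1* and *Fkbp5* was cKO replicate 3. Whether the genes of this list followed hormone levels or the immediate early genes in these mice was not tested.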
